A study of Mus musculus with 6 samples.

Results

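The genes described here are host genes of small RNAs and a set of named long noncoding RNAs, chosen by symbol. They are the genes whose GENCODE M21 symbol begins with Snhg, begins with Mir and ends in hg, or is one of 23 listed names. Of 12327 genes in the table, 25 met this rule, 10 of them by the Snhg prefix, 4 by the Mir form and 11 by name. All 25 passed the filter on low values (3 or more libraries at 0.5 FPKM or above) and were tested among 12222 genes in all. FPKM counts fragments per length of transcript and per depth of library. The annotation holds 47 genes under the same rule. The other 22, among them Dancr, Kcnq1ot1, Meg3, Miat, Mir155hg, Tug1, Rmrp, Rpph1 and Terc, were not analysed here, and 3 of the listed names (Norad, Cyrano and Oip5os1) are no symbol of that release.

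A small-RNA host gene is transcribed as a long precursor that carries small nucleolar RNAs (snoRNAs) or microRNA hairpins, often in its introns. SnoRNAs of the box C/D class guide methylation of ribosomal RNA, and those of the box H/ACA class guide pseudouridylation, while the small Cajal body RNAs (scaRNAs) act on spliceosomal RNAs. Many spliced snoRNA host transcripts, the Snhg genes and Gas5 among them, encode no stable protein and are degraded during translation by nonsense-mediated decay. MicroRNA hairpins are cut from their host by Drosha and Dgcr8, then by Dicer1, and act in Argonaute proteins. Among the genes that carry no annotated snoRNA, scaRNA or microRNA, Neat1 builds the nuclear bodies called paraspeckles, and Malat1 accumulates in nuclear speckles.

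The samples are RNA sequencing libraries of BV2, a mouse microglial cell line that was immortalised. The 3 GCH1-KD libraries come from cells given, for 48 hours, an adenovirus with a short hairpin RNA against GCH1, the first enzyme of tetrahydrobiopterin synthesis. The 3 negative control (NC) libraries are from cells of the same subline, which the treatment text names Ad-NC and the series text wild type, and whether they received a virus is not clear from these labels. Both groups grew in high-glucose medium with serum, and total RNA was depleted of ribosomal RNA before stranded libraries were made. The labels give no separate cultures for the 3 libraries of a group, so every p-value below rests on a spread between libraries that may be technical. In bulk RNA, fewer cells that express a gene and less of its RNA per cell cannot be told apart.

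The targeted gene, Gch1, had 3.20, 2.93 and 3.43 FPKM in the GCH1-KD libraries, against 6.89, 7.22 and 7.23 FPKM in the NC libraries. Each knockdown library lay below each control, as labelled, at 44.8% of the control mean (log2 fold change -0.96, SE 0.06, limma Benjamini-Hochberg (BH) adjusted p = 0.00542). The 6 libraries summed to 224291 to 230292 FPKM, and Pearson's r between pairs of libraries across genes was 0.989 to 0.993. No counts were given. The depth estimated from the steps between low values was 6.32 to 7.61 Gb (gigabases, aligned) in the GCH1-KD libraries, against 5.25 to 5.58 Gb in the NC libraries, and the part of this difference in the results was not tested. Of 13 microglial markers 11 were measured, with summed levels of 1049 to 1108 FPKM in GCH1-KD libraries and 1094 to 1116 FPKM in NC libraries. Cd68, Tyrobp and Fcer1g were the highest, with group means of 237 to 486 FPKM, while those of Tmem119 and Cx3cr1 were 0.48 to 1.35 FPKM. Itgam ran from 7.10 to 23.0 FPKM in GCH1-KD libraries and from 7.22 to 31.1 FPKM in NC libraries. C1qa and P2ry12 have no value here. Of 7 neuronal markers none was measured, and 1 was measured of 5 astrocyte, 5 oligodendrocyte, 5 fibroblast and 4 lymphocyte markers each. Of 5 endothelial markers 2 were measured, Vwf and Flt1.

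The small RNAs inside these genes are their best-known products. Within the 25 genes, on their strand, the annotation places 37 snoRNA, 2 scaRNA and 17 microRNA genes. Sorted by content, 13 genes are snoRNA or scaRNA hosts (Gas5, Zfas1, Epb41l4aos and the 10 Snhg genes). Another 6 are microRNA hosts (Mir17hg, Mir22hg, Mir142hg, Mir99ahg, Dleu2 and Ftx). The last 6 hold no annotated snoRNA, scaRNA or microRNA (Malat1, Neat1, Lncpint, Jpx, Pvt1 and Firre), and other kinds of small RNA were not searched. Gas5 holds 10 annotated snoRNAs, Snhg1 holds 8 and Snhg12 holds 5. These counts are of annotation entries, and Snord80 in Gas5 and Snora16a in Snhg12 are each entered more than once at overlapping positions. Of the 39 snoRNAs and scaRNAs, 35 touch an annotated exon of their host in at least 1 transcript form, as do 9 of the 17 microRNAs, so a host value can include fragments of the small RNA's own stretch.

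Mir17hg carries the miR-17-92 cluster, a group of microRNAs known for promoting proliferation and survival, and it is the one gene of the 25 that passed the test. Its 6 hairpins begin 792, 972, 1121, 1278, 1426 and 1548 bases after the start of a locus 3849 bases long, all inside its annotated exon sequence. The main mature products are given in RNA letters, 5′ to 3′, as RefSeq lists them for GRCm38.p6, to show which of them share a seed. The seed, bases 2 to 8, is in capitals and pairs with target messenger RNAs.
mmu-miR-17-5p: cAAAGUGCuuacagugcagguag
mmu-miR-20a-5p: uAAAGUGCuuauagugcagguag
mmu-miR-18a-5p: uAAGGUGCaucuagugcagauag
mmu-miR-19a-3p: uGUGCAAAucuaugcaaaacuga
mmu-miR-19b-3p: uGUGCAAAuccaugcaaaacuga
mmu-miR-92a-3p: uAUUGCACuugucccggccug
The seeds fall into 4 groups. The miR-17-5p and miR-20a-5p products share one seed, the miR-19a-3p and miR-19b-3p products share another, and miR-18a-5p and miR-92a-3p each have their own. Mature microRNAs are shorter than the fragments of such libraries and were not measured.

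Box C/D and box H/ACA snoRNAs are told apart by short motifs. Shown next are both snoRNAs of Snhg3 and of Snhg5, 2 hosts among those with the larger fold changes below, and 1 each of Snhg6 and Gas5, 2 hosts with smaller ones. Sequences are from GRCm38 at the GENCODE M21 positions, in the direction of transcription. Capitals mark the ACA that lies 3 bases from the end in box H/ACA snoRNAs (Snora names), or the TGATGA near the start and the CTGA near the end in box C/D snoRNAs (Snord names).
Snora73a: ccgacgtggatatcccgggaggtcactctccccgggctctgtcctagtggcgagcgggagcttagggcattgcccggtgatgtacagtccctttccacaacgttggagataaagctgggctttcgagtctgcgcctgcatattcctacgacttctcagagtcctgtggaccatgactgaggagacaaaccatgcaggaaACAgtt
Snora73b: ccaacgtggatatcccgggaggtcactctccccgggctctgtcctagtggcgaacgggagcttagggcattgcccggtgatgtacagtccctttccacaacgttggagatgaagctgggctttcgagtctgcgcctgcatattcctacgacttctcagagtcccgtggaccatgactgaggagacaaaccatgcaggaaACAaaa
Snord50a: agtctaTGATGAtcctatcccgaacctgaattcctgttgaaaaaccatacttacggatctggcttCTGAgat
Snord50b: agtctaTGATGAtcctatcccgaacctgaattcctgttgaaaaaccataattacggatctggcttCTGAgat
Snord87: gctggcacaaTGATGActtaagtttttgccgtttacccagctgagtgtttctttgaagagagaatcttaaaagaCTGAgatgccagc
Snord47: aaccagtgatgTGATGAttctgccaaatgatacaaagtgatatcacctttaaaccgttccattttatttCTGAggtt
Snora73a and Snora73b of Snhg3 are both 205 bases long and identical at 198 positions, and Snord50a and Snord50b of Snhg5 are both 72 bases long and identical at 71. Over all annotated Snora genes, 35 of 42 (83.3%) had the ACA at that place, against 0 of 98 Snord genes. Host snoRNAs with other names were not searched. TGATGA followed by CTGA was present in 74 of 98 Snord genes (75.5%), against 0 of 42 Snora genes. These motifs were searched on the transcribed strand only and were chosen after the values were seen.

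Mir17hg (ENSMUSG00000089726.2, a long intergenic RNA with 1 annotated transcript; GRCm38 chromosome 14, 115042879 to 115046727, plus strand) had 5.54, 6.06 and 6.02 FPKM in the GCH1-KD libraries, against 2.94, 3.48 and 3.56 FPKM in the NC libraries. All 3 knockdown libraries were above all 3 controls, and the lowest control was the first. The level averaged 5.87 ± 0.29 FPKM in GCH1-KD cells and 3.33 ± 0.34 FPKM in NC cells (SD, n = 3 each), which is 177% of control. On the log2(FPKM + 1) scale the gene rose by 0.67 (SE 0.07, 95% interval 0.50 to 0.84, limma BH adjusted p = 0.0403). The estimated read coverage of its transcript was 42.2, 41.6 and 38.1 in GCH1-KD libraries, against 16.4, 18.3 and 19.6 in NC libraries. Coverage is not scaled for depth, which was estimated to be higher in the GCH1-KD libraries, so it differs more than FPKM does. Small RNA genes aside, which were left out of this search, no other gene of the table overlaps Mir17hg.

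**Figure D1:**
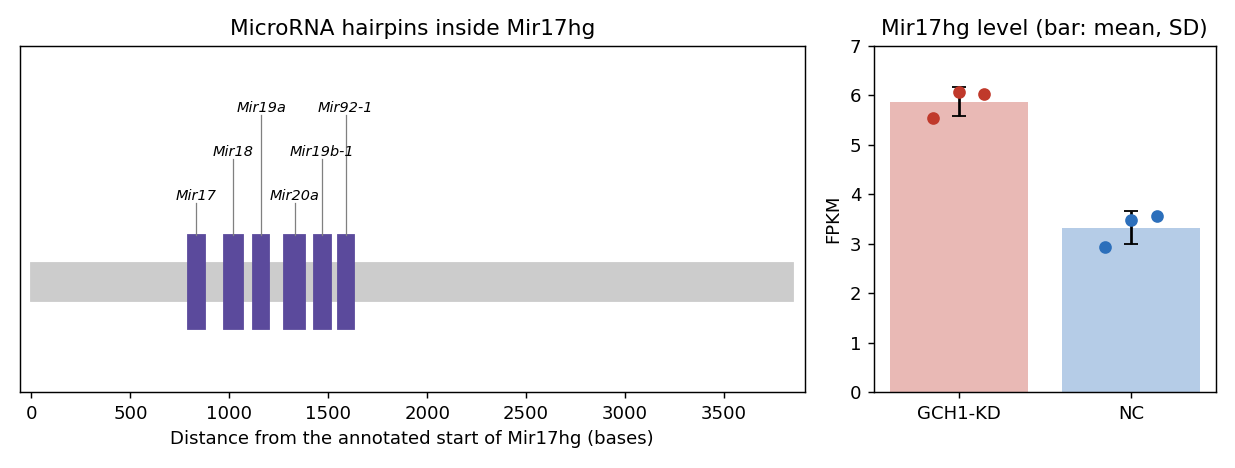
The level of Mir17hg in FPKM (vertical axis, from 0) in each of the 3 GCH1-KD and 3 NC libraries (points), with the group mean and SD. The GCH1-KD libraries sit between 5.54 and 6.06 FPKM, above the NC libraries at 2.94 to 3.56 FPKM.

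The call of Mir17hg rests on a narrow margin. With each library left out in turn, all 6 fits gave a limma BH adjusted p above the 0.05 threshold, from 0.0513 without NC library 1 to 0.187 without GCH1-KD library 2, with log2 fold changes of 0.60 to 0.71. A two-sided exact permutation test of the 6 values gave p = 0.1, which is the lowest possible with 3 libraries a group. Mir17hg has the lowest GC content of the 25 genes, 40.1%, and fold changes in these libraries ran along GC content (Spearman's rho -0.29 across 12198 genes). Once a trend of GC content and length was taken out of each library, its log2 fold change was 0.61 (limma BH adjusted p = 0.102).

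Known messenger RNA targets of the miR-17-92 cluster were measured for 14 of 16 listed genes. None of the 14 passed the test, and 3 were higher and 11 lower in GCH1-KD cells, where 53.0% of all genes were higher. The median log2 fold change was -0.05, and 1 gene was lower at an unadjusted p under 0.05, as were 4.82% of all genes. E2f1, a transcription factor of S-phase entry, had 16.9, 19.2 and 18.3 FPKM in GCH1-KD libraries and 20.2, 19.0 and 20.9 FPKM in NC libraries (log2 fold change -0.14, limma BH adjusted p = 0.433). One knockdown library lay inside the control range. E2f3 averaged 12.1 FPKM in GCH1-KD and 12.998 FPKM in NC libraries (log2 fold change -0.10). The cell-cycle inhibitor Cdkn1a averaged 19.8 FPKM in GCH1-KD and 20.8 FPKM in NC libraries (log2 fold change -0.07). Both had groups that did not overlap. In all, 3 of the 14 had every GCH1-KD library below every NC library, against 8.36% of all genes. Bcl2l11, a gene of a death-promoting protein, differed by -0.06 with overlapping groups, and was picked after its values were seen. Myc, a known activator of Mir17hg, averaged 1.64 FPKM in GCH1-KD and 1.90 FPKM in NC libraries (log2 fold change -0.13, limma BH adjusted p = 0.565). In the MYC and E2F list of 14 measured genes, 7 were higher, 7 lower and none passed.

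Over the whole table, 10 genes passed the limma BH adjusted p of 0.05, which is 0.0818% of those tested, and 1 of the 25 did. Leaving out single libraries gave 6 genes (without GCH1-KD library 2 or 3) to 18 genes (without NC library 2). At an unadjusted limma p under 0.05, 7 of the 25 were higher in GCH1-KD cells (28%), against 6.47% of all genes, and 2 were lower, against 4.82%. Every GCH1-KD library was above every NC library in 5 of the 25 (20%), against 9.99% of all genes, and below every NC library in 1 (4%), against 8.36%. Of the 25, 18 had a positive and 7 a negative log2 fold change, with a median of 0.10, beside 0.01 over all genes. The share above 0 was 72%, against 53.0% of all genes and 68.0% of noncoding genes. The 1514 noncoding genes and pseudogenes tested had a median of 0.06, with 14.5% higher and 2.51% lower at an unadjusted p under 0.05. Their groups did not overlap in 17.0% (higher) and 3.57% (lower). The median of the 25 and the shares whose groups did not overlap lay nearer to those of noncoding genes in general than to those of all genes.

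**Figure D2:**
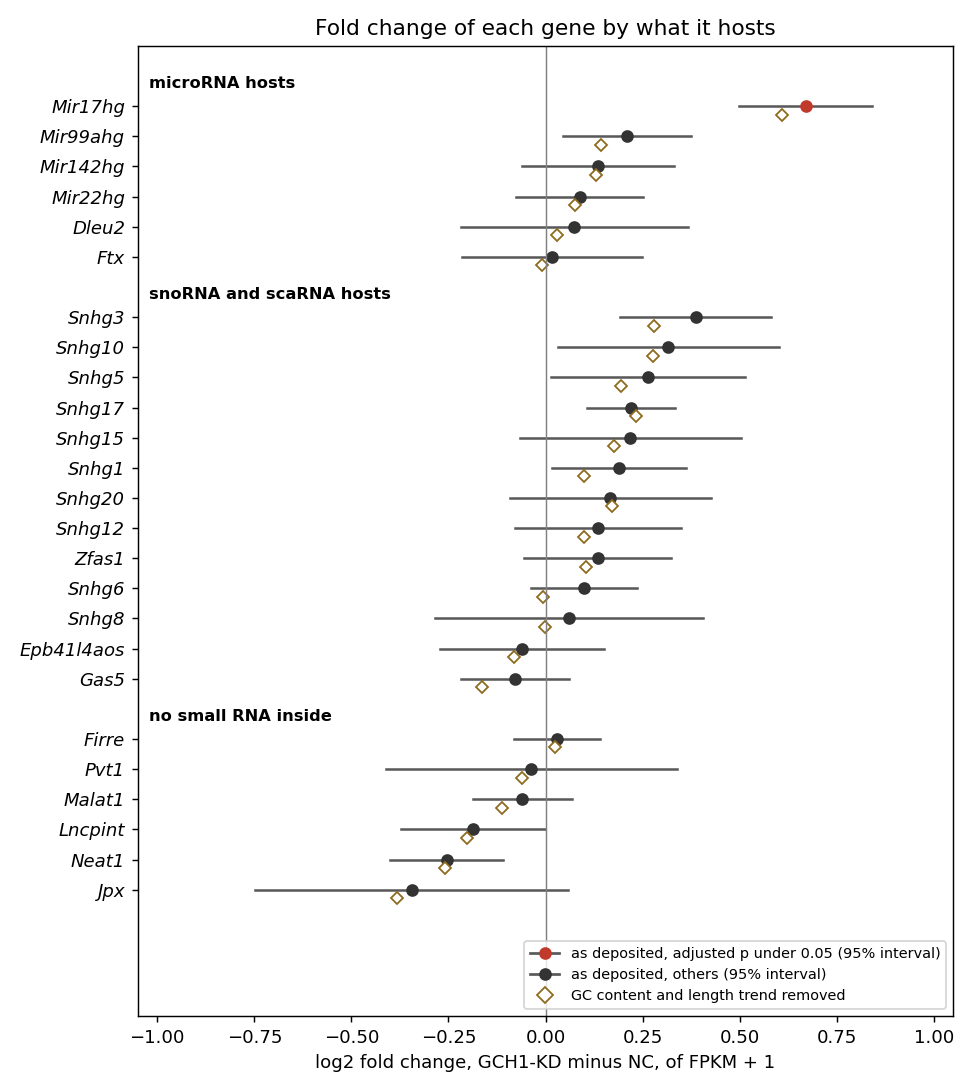
Log2 fold change, GCH1-KD minus NC, of each of the 25 genes (vertical axis, grouped by the kind of small RNA held) with its 95% interval (filled points), and the same with the GC and length trend removed (open diamonds). The interval of Mir17hg (0.50 to 0.84) is the farthest from 0, and those of most other genes lie near or across 0.

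Fold changes were related to GC content over the whole table. The correlation given above, between the log2 fold change and the GC content of the annotated transcripts, is a description across genes, which are not independent replicates. Of 20 groups of genes by GC content, that with the lowest had a median log2 fold change of 0.08 and that with the highest one of -0.04. The median GC content was 47.9% for the 25 genes, 44.0% for noncoding genes and 49.9% for all genes. After removal of this trend and that of length, the median was 0.08 for the 25, 0.01 for noncoding genes and 0.00 for all, and 15 of the 25 were above 0. The 3 genes that turned from positive to negative were Snhg6, Snhg8 and Ftx, all within 0.01 of 0. After this correction 4 of the 25 had all GCH1-KD libraries above all NC libraries, against 9.33% of genes, and 3 had them below, against 10.1%. The correction left 7 of the 25 at an unadjusted limma p under 0.05, beside 1508 of 12198 genes. Of these, Mir17hg, Snhg3, Snhg17 and Mir99ahg were higher in GCH1-KD cells, and Neat1, Gas5 and Malat1 were lower.

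**Figure D3:**
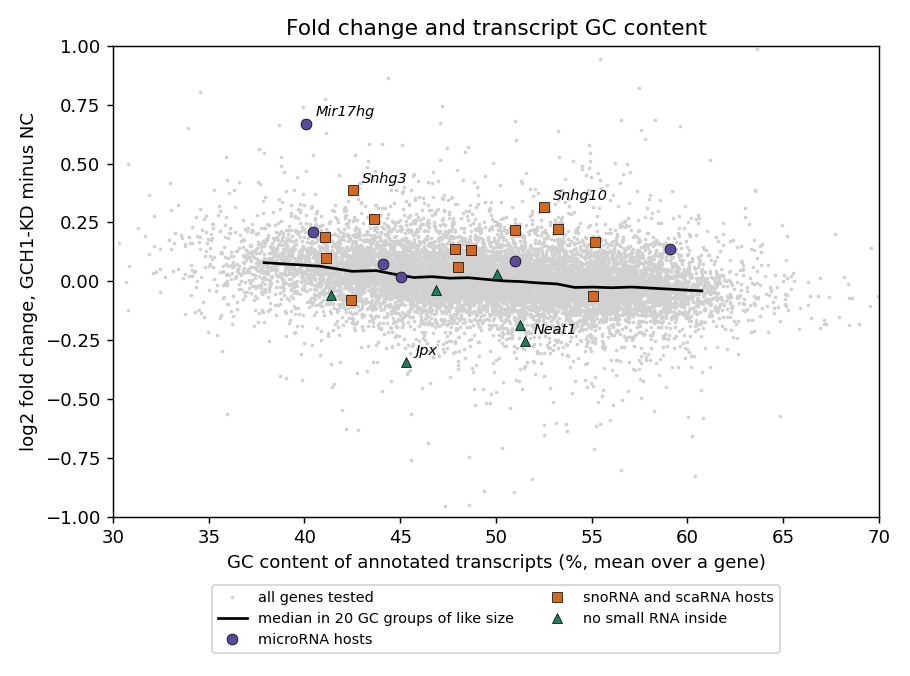
Log2 fold change, GCH1-KD minus NC (vertical axis), against the GC content of annotated transcripts in percent (horizontal axis), for all genes with a value, the 25 genes and the medians of 20 groups of genes of like size by GC content. The medians run from 0.08 at the low end to -0.04 at the high end, and Mir17hg stands above them at 0.67. Genes outside the axes are not drawn.

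The 13 snoRNA and scaRNA hosts had a median log2 fold change of 0.17, with 11 positive and 2 negative, or 0.10 with 9 positive and 4 negative once the GC and length trend was removed. Their most abundant member, Snhg3 (chromosome 4, 132348014 to 132353686, minus strand), the host of the Snora73 genes, had 68.5, 85.1 and 71.2 FPKM in GCH1-KD libraries, against 58.1, 54.0 and 58.6 FPKM in NC libraries. The groups did not overlap, and GCH1-KD library 2 stood above the other knockdown libraries. Snhg3 averaged 74.9 ± 8.93 FPKM in GCH1-KD and 56.9 ± 2.54 FPKM in NC libraries (SD, n = 3 each). Its difference of 0.39 on the log2 scale (SE 0.08, 95% interval 0.19 to 0.58) did not pass (limma BH adjusted p = 0.261). With the GC and length trend removed the value was 0.28. Rcc1, the exchange factor of the Ran GTPase, starts 81 bases from Snhg3 on the same strand and shares 135 exon bases with it, so reads of the shared bases could go to either gene. Rcc1 averaged 6.05 FPKM in GCH1-KD and 6.30 FPKM in NC libraries, a log2 fold change of -0.05.

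Snhg17 (chromosome 2, 158353700 to 158361580), a host of 3 annotated snoRNAs, had 7.63, 7.86 and 8.12 FPKM in GCH1-KD libraries, against 6.84, 6.45 and 6.56 FPKM in NC libraries. The knockdown libraries were all higher, and both groups were tight (log2 fold change 0.22, SE 0.05, 95% interval 0.11 to 0.33, limma BH adjusted p = 0.261). Removing the GC and length trend left this value at 0.23. Snhg10, the host of Scarna13, had 4.45, 4.19 and 4.24 FPKM in GCH1-KD libraries, against 3.01, 4.18 and 2.70 FPKM in NC libraries. The groups did not overlap by the narrowest of margins, since NC library 2 all but reached GCH1-KD library 2 (log2 fold change 0.32, 95% interval 0.03 to 0.60, limma BH adjusted p = 0.397). Glrx5, an iron-sulfur cluster protein gene that starts 409 bases away on the other strand, differed by -0.01.

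Snhg1, which holds 8 annotated snoRNAs, Snord22 among them, had 8.22, 8.98 and 8.96 FPKM in GCH1-KD libraries, against 7.08, 8.41 and 7.14 FPKM in NC libraries. Here NC library 2 lay above GCH1-KD library 1, so the groups overlapped (log2 fold change 0.19, limma BH adjusted p = 0.399, 0.10 with the GC and length trend removed). Slc3a2, the amino acid transporter subunit gene that starts 106 bases away on the other strand, differed by 0.02. Snhg5, the host of the Snord50 pair, had 5.39, 7.03 and 7.04 FPKM in GCH1-KD libraries, against 5.44, 4.65 and 5.54 FPKM in NC libraries. GCH1-KD library 1 was inside the control range while the other knockdown libraries were above it (log2 fold change 0.26, 95% interval 0.01 to 0.51, limma BH adjusted p = 0.419).

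Snhg6, the host of Snord87, had 26.1, 30.1 and 26.4 FPKM in GCH1-KD libraries, against 25.3, 26.2 and 25.3 FPKM in NC libraries. Only GCH1-KD library 2 stood apart from the rest (log2 fold change 0.10, limma BH adjusted p = 0.543), and with the GC and length trend removed the value was -0.01. Epb41l4aos, the host of 1 snoRNA, had 18.7, 23.0 and 19.0 FPKM in GCH1-KD libraries, against 21.2, 19.4 and 22.6 FPKM in NC libraries. The groups were interleaved (log2 fold change -0.06, limma BH adjusted p = 0.819). Gas5, which is known for accumulating in growth-arrested cells, averaged 16.3 ± 0.36 FPKM in GCH1-KD and 17.3 ± 1.31 FPKM in NC libraries (SD, n = 3 each). Its log2 fold change was -0.08, with a 95% interval of -0.22 to 0.06. With the GC and length trend removed it was -0.16 (limma BH adjusted p = 0.321, with the unadjusted p under 0.05).

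The remaining hosts of this class were Snhg15 (log2 fold change 0.22), Snhg20 (0.17), Snhg12 (0.14), Zfas1 (0.13) and Snhg8 (0.06). All 5 had groups that overlapped. In Snhg15 the knockdown libraries themselves were spread from 5.85 to 8.12 FPKM, while NC libraries held 5.28 to 6.67 FPKM. Snhg8 had a coefficient of variation of 4.69% among GCH1-KD libraries and 23.9% among NC libraries, which ran from 9.88 to 16.005 FPKM. No direction can be read for these genes beyond their spread.

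**Figure D4:**
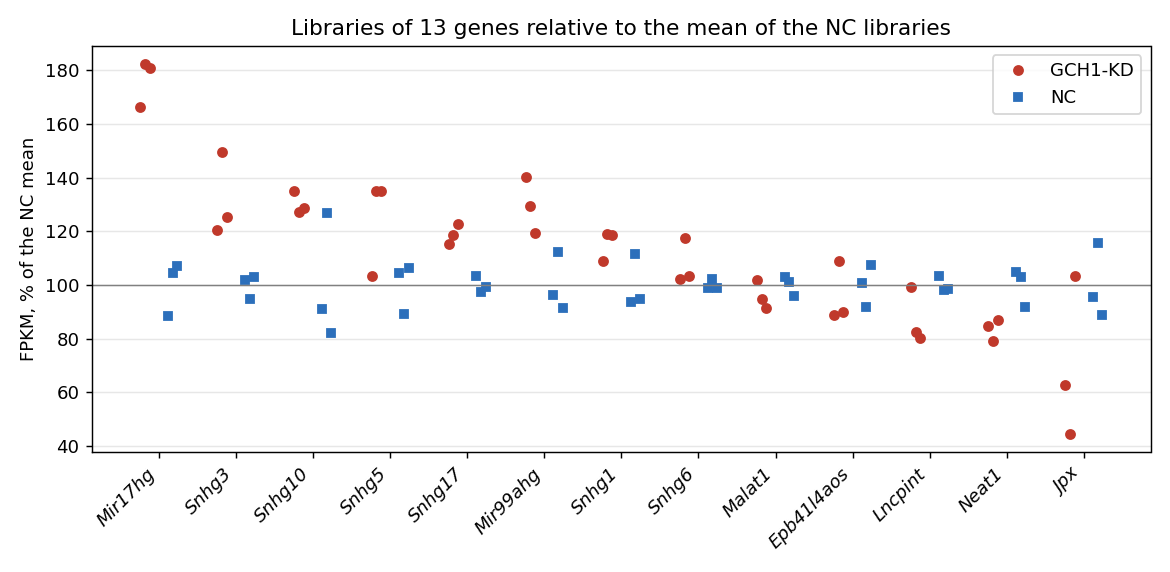
FPKM of each library as a percentage of the NC mean (vertical axis) for the 13 genes whose values are given for every library, GCH1-KD points left of NC points. Mir17hg lies highest with a GCH1-KD mean of 177% of control, Snhg3 has a mean of 132%, and Jpx, with a mean of 70.1%, has the widest knockdown spread.

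The 6 microRNA hosts all had a positive log2 fold change, with a median of 0.11, or 0.10 with 5 of 6 positive once the GC and length trend was removed. Besides Mir17hg, Mir99ahg had groups that did not overlap. Mir99ahg, the host of miR-99a, let-7c and miR-125b, had 1.54, 1.42 and 1.31 FPKM in GCH1-KD libraries, against 1.06, 1.23 and 1.01 FPKM in NC libraries. The lowest knockdown library was just above the highest control (log2 fold change 0.21, 95% interval 0.04 to 0.37, limma BH adjusted p = 0.366, 0.14 with the GC and length trend removed). Within its long span lie 12 other genes of the table on the same strand, which share no exon base with it. Their log2 fold changes ran from -0.01 to 0.80, and 3 of them had all GCH1-KD libraries above all NC libraries, as did 9.99% of all genes and 17.0% of noncoding genes. The highest was C130023A14Rik, at 1.37 FPKM in GCH1-KD and 0.375 FPKM in NC libraries on average (limma BH adjusted p = 0.198).

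The other microRNA hosts differed less. Mir142hg, which carries the blood-cell microRNA miR-142, averaged 15.9 ± 1.49 FPKM in GCH1-KD and 14.4 ± 1.25 FPKM in NC libraries (SD, n = 3 each; log2 fold change 0.14). Mir22hg averaged 12.3 ± 0.53 FPKM in GCH1-KD and 11.5 ± 1.07 FPKM in NC libraries (log2 fold change 0.09). Dleu2, the host of miR-15a and miR-16-1, differed by 0.07, and Ftx, an X-linked gene that holds miR-421 and miR-374b, by 0.02. All 4 had groups that overlapped.

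Of the 6 genes that hold no annotated snoRNA, scaRNA or microRNA, 5 had a negative log2 fold change. Their median was -0.12, and 5 were also negative with the GC and length trend removed. Neat1 (chromosome 19, 5824708 to 5845478), the architectural RNA of paraspeckles, had 105.2, 98.1 and 107.8 FPKM in GCH1-KD libraries, against 130.3, 127.9 and 114.1 FPKM in NC libraries. All knockdown libraries lay below all controls, with NC library 3 the closest to them. Neat1 averaged 104 ± 4.99 FPKM in GCH1-KD and 124 ± 8.76 FPKM in NC libraries (SD, n = 3 each), or 83.6% of control. The log2 fold change was -0.26 (SE 0.06, 95% interval -0.40 to -0.11) and did not pass (limma BH adjusted p = 0.287), and it was the same to 2 decimals with the GC and length trend removed.

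Malat1 (chromosome 19, 5795690 to 5802672), the neighbour of Neat1 and the ninth most abundant gene of the table, had 1503, 1396 and 1351 FPKM in GCH1-KD libraries, against 1519, 1492 and 1416 FPKM in NC libraries. The groups overlapped, and the log2 fold change was -0.06 (95% interval -0.19 to 0.07, limma BH adjusted p = 0.699). With the GC and length trend removed the value for Malat1 was -0.11 (limma BH adjusted p = 0.363, with the unadjusted p under 0.05). Gm37376 runs on the opposite strand and shares 453 exon bases with Malat1. With the strand setting of the counting not given in the sources used here, its reads and those of Malat1 cannot be told apart. Gm37376 averaged 4.76 ± 1.44 FPKM in GCH1-KD and 3.08 ± 0.18 FPKM in NC libraries (SD, n = 3 each), a log2 fold change of 0.47 (limma BH adjusted p = 0.376).

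Lncpint, a p53-responsive transcript, had 12.6, 10.5 and 10.2 FPKM in GCH1-KD libraries, against 13.1, 12.5 and 12.5 FPKM in NC libraries. GCH1-KD library 1 was within the control range and the other knockdown libraries were below it (log2 fold change -0.19, limma BH adjusted p = 0.442). The opposite-strand gene 2210408F21Rik shares 138 exon bases with Lncpint and differed by 0.04. Jpx, known as an activator of Xist, had 1.25, 0.886 and 2.05 FPKM in GCH1-KD libraries, against 1.90, 2.304 and 1.76 FPKM in NC libraries. GCH1-KD libraries 1 and 2 were below all controls and library 3 was inside the control range (log2 fold change -0.34, 95% interval -0.75 to 0.06, limma BH adjusted p = 0.495). Xist itself averaged 188 FPKM in GCH1-KD and 187 FPKM in NC libraries (log2 fold change 0.01, and -0.05 after the GC and length correction), with overlapping groups. Pvt1, the neighbour of Myc, differed by -0.04 and the nuclear X-linked RNA Firre by 0.03, both with overlapping groups.

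**Figure D5:**
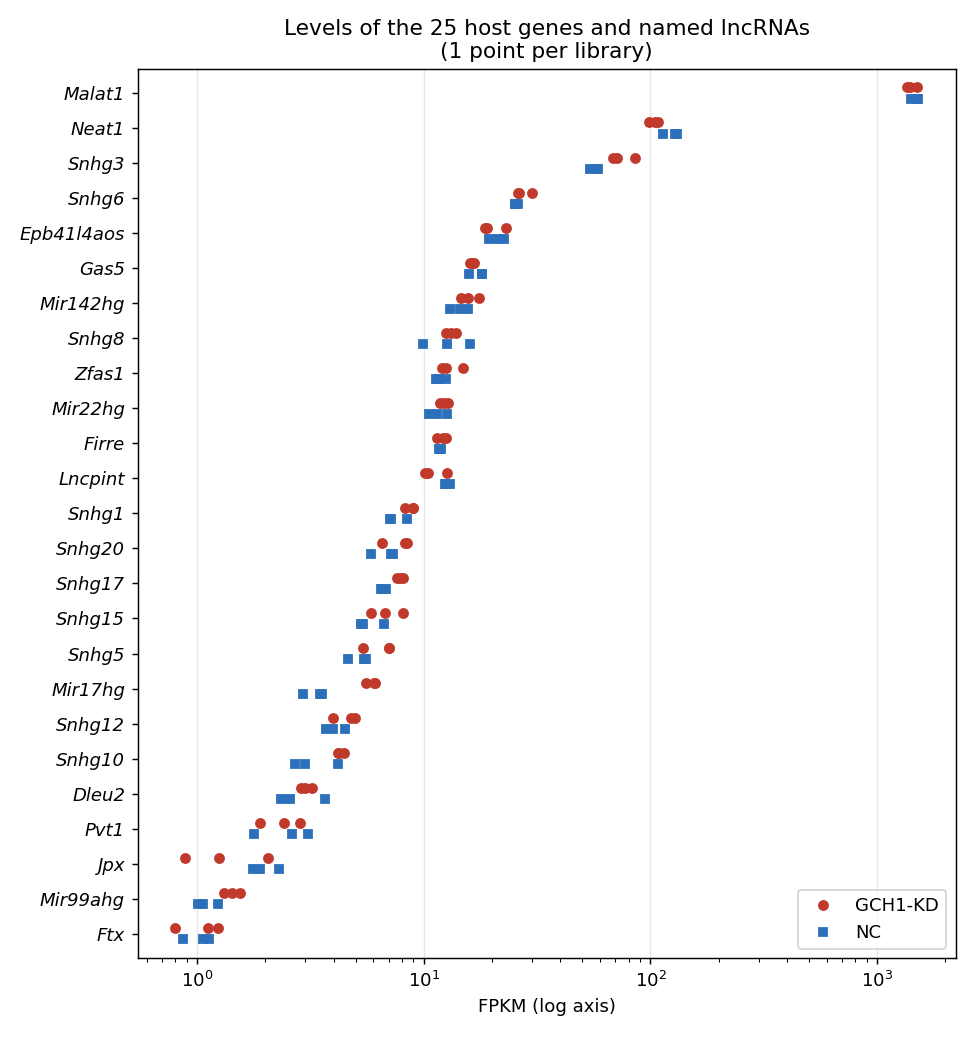
Levels of the 25 genes in FPKM (horizontal log axis) with 1 point per library, GCH1-KD points above NC points in each gene. Levels span from Malat1 at 1351 to 1519 FPKM down to Ftx near 1 FPKM, and the points of both groups lie close together in most genes.

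By level, Malat1 stood far above all others, followed by Neat1, Snhg3, Snhg6 and Epb41l4aos, the only other genes with a mean of at least 20 FPKM over the 6 libraries. In this order, each gene's lowest library lay above the highest library of the next, down to Epb41l4aos and Gas5. Gas5, Mir142hg, Snhg8, Zfas1, Mir22hg, Firre and Lncpint followed with group means of 11.1 to 17.3 FPKM, and the library ranges of neighbours among them overlapped. Ftx was the lowest, with a mean of 1.04 FPKM and rank 11167 of 12327. Values per length make these levels comparable between genes, though transcript forms of different length within a gene were not resolved.

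Proteins and target genes known to act with these RNAs were read from 13 lists. Over all lists, 109 different genes were tested and none passed the limma BH adjusted p of 0.05, with 10 higher and 5 lower at an unadjusted p under 0.05, where all genes had 6.47% higher and 4.82% lower. The lowest limma BH adjusted p among them was 0.174. Those of the box C/D particle, Fbl, Nop56, Nop58 and Snu13, were all slightly positive with a median log2 fold change of 0.06. In the box H/ACA particle 3 of 4 were positive, or 2 of 4 with the GC and length trend removed. Its member Nop10 had 34.1, 38.3 and 34.4 FPKM in GCH1-KD libraries, against 28.6, 30.002 and 30.7 FPKM in NC libraries, with no overlap (log2 fold change 0.25, limma BH adjusted p = 0.261). The assembly factors were divided, 8 positive and 4 negative, with a median of 0.02, or 5 positive and 7 negative with a median of 0.00 once the GC and length trend was removed.

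Of the 16 genes of microRNA processing and Argonaute complexes, 6 were positive and 10 negative. Ddx5, a helicase of the Drosha complex, averaged 77.2 FPKM in GCH1-KD and 70.2 FPKM in NC libraries (log2 fold change 0.14), and Tnrc6a, a scaffold of silencing complexes, 8.10 FPKM in GCH1-KD and 8.95 FPKM in NC libraries (log2 fold change -0.13). Neither passed (lowest limma BH adjusted p of the list 0.391). Of 10 nonsense-mediated decay genes, 3 were positive and 7 negative, with a median of -0.02. Smg9, a regulator of the kinase Smg1, averaged 5.34 FPKM in GCH1-KD and 5.96 FPKM in NC libraries (log2 fold change -0.14). The median of the snoRNA and scaRNA hosts was 0.17, or 0.10 once the GC and length trend was removed. A link between the decay genes and the hosts was not tested.

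Of 13 paraspeckle proteins, 9 were positive and 4 negative, while Neat1 was negative. Srsf10 was at 13.8 FPKM in GCH1-KD and 11.9 FPKM in NC libraries (log2 fold change 0.19, limma BH adjusted p = 0.292), and Nono, a core protein of the body, at 51.4 FPKM in GCH1-KD and 54.6 FPKM in NC libraries (log2 fold change -0.09). Of 7 nuclear speckle proteins, 6 were positive, with a median of 0.11 (0.09 with the GC and length trend removed). The splicing factor Srsf3 was at 23.2 FPKM in GCH1-KD and 20.3 FPKM in NC libraries (log2 fold change 0.18, limma BH adjusted p = 0.262). Srsf1 differed by 0.20 and Son by 0.11, and all 3 had groups that did not overlap. In 1 other of the 7, Srrm2, every GCH1-KD library lay below every NC library. Over all genes, groups did not overlap in 9.99% (higher) and 8.36% (lower).

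The RNAs of RNase P, RNase MRP and telomerase were not analysed here, but their proteins were measured. Of 10 RNase P and MRP proteins, 7 were positive and 3 negative. Pop5, a subunit that both enzymes share, had 2.63, 2.27 and 2.48 FPKM in GCH1-KD libraries, against 3.80, 3.89 and 4.98 FPKM in NC libraries. All knockdown libraries were below all controls (log2 fold change -0.59, limma BH adjusted p = 0.174, -0.58 with the GC and length trend removed). Pop7, another shared subunit, averaged 7.45 FPKM in GCH1-KD and 6.17 FPKM in NC libraries, also without overlap but in the opposite direction (log2 fold change 0.24). Rpp30 differed by 0.14. The telomerase partner Wrap53 averaged 5.22 FPKM in GCH1-KD and 5.84 FPKM in NC libraries (log2 fold change -0.14).

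Host genes that encode a protein served for comparison with the 13 noncoding snoRNA hosts, a set chosen after the values were seen. Of 213 protein-coding genes with a snoRNA or scaRNA on their strand, 119 were positive and 94 negative, with a median log2 fold change of 0.01 (99 and 114, with a median of -0.01, once the GC and length trend was removed). None passed limma's BH adjusted p of 0.05, and 9 were higher and 3 lower at an unadjusted p under 0.05, both smaller shares than the 6.47% and 4.82% of all genes. Another 11 noncoding hosts outside the rule had a median of 0.06, or 0.02 once the GC and length trend was removed. Of these 11, 3 were higher and 2 lower at an unadjusted limma p under 0.05, beside 5 and 0 of the 13. With the GC and length trend removed, the hosts among the 13 at such a p were Snhg3 and Snhg17 (higher) and Gas5 (lower). Without that removal, groups did not overlap in 5 (higher) and 2 (lower) of the 11, and in 3 and 0 of the 13. Over all genes, groups did not overlap in 9.99% (higher) and 8.36% (lower). The difference between these sets and the 13 hosts was not tested.

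Many snoRNA hosts and ribosomal protein genes of mammals are known to start transcription at a C followed by a run of pyrimidines, the terminal oligopyrimidine start. RefSeq start windows (GRCm38.p6) exist for 20 of the 25 genes, and 21 windows of 19 genes lie within 100 bases of an annotated GENCODE start. A C at the first base, followed by at least 4 bases that are C or T, was found on the transcribed strand in 3 of these windows (14.3%), those of Gas5, Snhg8 and Jpx. The same holds for 823 of 32851 windows over all genes (2.51%) and for 8 of 48 windows of ribosomal protein genes (16.7%). In Jpx the start base lies inside a run of C that begins before it, so a start placed slightly earlier would match too. The first 20 bases of each line below precede the start, and capitals mark the pyrimidine run where there is one, so that Gas5 and Snhg8 can be compared with Snhg3 and Snhg1.
Gas5 start: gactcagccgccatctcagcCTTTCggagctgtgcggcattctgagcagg
Snhg8 start: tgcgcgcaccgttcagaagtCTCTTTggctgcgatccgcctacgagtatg
Snhg3 start: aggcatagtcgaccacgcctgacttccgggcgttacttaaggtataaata
Snhg1 start: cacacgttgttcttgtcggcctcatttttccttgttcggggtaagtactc
Neither Snhg3 nor Snhg1 has the run at the RefSeq start base. Since the search found it in only 8 of 48 ribosomal protein windows, its absence does not show that a gene lacks such a start. The windows are at chromosome 1 from 161035146 to 161035195 for Gas5, chromosome 3 from 123508307 to 123508356 for Snhg8, chromosome 4 from 132353657 to 132353706 for Snhg3 and chromosome 19 from 8723467 to 8723516 for Snhg1. The log2 fold changes of the 3 genes with the run were -0.34 (Jpx), -0.08 (Gas5) and 0.06 (Snhg8). Those of the other genes with such a window ranged from -0.19 (Lncpint) to 0.39 (Snhg3), and the difference was not tested. The letters CACGTG, the same on both strands and known as a site that Myc can bind, were present in 5 of the 21 windows of 250 bases before to 50 after the start (23.8%; Dleu2, Firre, Jpx, Lncpint and Snhg15) and in 7.15% of all windows. This search was added after the values were seen. The RefSeq start listed for Mir17hg was not used, since it lies farther from the GENCODE start than that limit.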

How the data were processed

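RNA of 6 libraries, 3 GCH1-KD and 3 NC, was analysed, grouped by the genotype label. The deposited table names no unit for its values. They were read as FPKM computed by the authors, since value times transcript length falls on steps. HISAT2, StringTie and edgeR are named, with no role or version, in the submitters' processing notes, as is the human build hg38, although every identifier is a mouse gene. The sources used here do not give the annotation or the strand setting of the authors' counting. Identifiers were matched without version to GENCODE M21 (GRCm38), which named 12300 genes.

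Genes that reached 0.5 FPKM in 3 or more libraries were tested on log2(FPKM + 1) with limma 3.58.1 (R 4.3.3), with a mean-variance trend and no covariate, and with BH adjustment over all genes tested. The pseudocount of 1 understates changes of weakly expressed genes. Values in every library are given for genes of the set with a mean of at least 20 FPKM, an unadjusted p under 0.05 or an absolute log2 fold change of at least 0.25, and for up to 3 genes per list with the smallest p the values as far as they bear on a result. The values of some list genes are not reported here. The members, lists and rules were chosen with earlier results of these data known. Depth was estimated from steps in genes with a single transcript: 67.3% to 70.2% of low values lay within 0.1 of a whole step in 489 to 563 genes per library. Coverage is FPKM times that depth. Alternatives were a replicate block, each library left out, pseudocounts of 0.5 and 0.1, no filter, a filter at a mean of 5 FPKM, scaling by median of ratios or quantiles, robust moderation, no trend, and a loess curve (span 0.3) of GC content and length removed, alone or with the block. Scripts used Python 3.11.15, and the test was tried on simulated data.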

Additional observations from a re-analysis of the deposited data

How the results depend on the processing

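Over the 13 named genes and Gch1, 223 of 234 recomputed values kept their side of the threshold, 11 lost a call and no called value changed sign. The lost calls were those of Mir17hg, in 9 of its 16 alternatives, and of Gch1, in 2 of 17. The other named genes were not called in the main fit, so they had no call to lose. Of the values not called, 2 changed sign, both of Snhg6, to -0.01 with the GC and length trend removed, with and without the block. Under the replicate block, limma called 0 of 12222 genes (1330 at an unadjusted p under 0.05) and 0 of the 25 (9 unadjusted). Mir17hg then had a BH adjusted p of 0.0896 and Gch1 of 0.0604 (log2 fold change -0.96). With the block and the GC and length trend removed, 0 genes were called (1431 unadjusted) and 0 of the 25 (9 unadjusted), with Gch1 at log2 -0.97 (limma BH adjusted p = 0.0792). Without the block, 0 of the 25 were called with the GC and length trend removed (7 unadjusted) or with a mean of at least 5 FPKM (5 unadjusted), which takes Mir17hg out of the test. Leaving out each library in turn gave 6 to 18 called genes (18 without NC library 2, 6 without GCH1-KD library 2 or 3) and 0 to 0 of the 25 (5 to 9 unadjusted). The median of the 25 was then 0.0842 to 0.127 (0.127 without NC library 3), and Gch1 was at log2 -0.999 to -0.911. Libraries with the same title number had deviations from the group means that correlated at 0.09, 0.06 and 0.09. Each library correlated best with the one of its number, but these correlations are small. The labels state no pairing, and whether the libraries are paired was not tested. Since depth was only estimated, no counting interval is given, and precision at low FPKM is limited.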
